A study of Mus musculus with 6 samples.

Results

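Distal open chromatin regions that stayed listed throughout the exit from naive pluripotency but became narrower are described here. They were chosen from peak lists of mouse embryonic stem cells by their widths: a region had to be in all 3 lists, to have its midpoint over 1 kb and up to 100 kb from the nearest end of a protein-coding gene, and to span at 96 h at most 0.6 times its width in 2iL. Of 131410 merged regions, 47176 were in all 3 lists and 30254 of these were distal. The narrowing regions numbered 2385, which is 7.88% (7.58 to 8.19) of the distal regions in all 3 lists. The opposite change, a width at 96 h at least 1.67 times that in 2iL, was found in 2743 regions or 9.07% (8.75 to 9.40), and 25126 other regions lay between both limits.

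The assay was ATAC-seq, which uses a transposase to place adapters wherever DNA is accessible, and the cells were E14, an established mouse embryonic stem cell line. The 3 groups were cells kept in N2B27 medium with 2iL (CHIR99021, which inhibits GSK3, PD0325901, which inhibits MEK, and the cytokine LIF), and cells collected 48 h and 96 h after 2iL had been replaced by plain N2B27. Each group had 2 samples, A and B, which share 1 deposited peak list, so no spread between replicates could be measured and no test between groups was possible. The lists held 91228, 88810 and 78055 intervals for 2iL, 48 h and 96 h, with median widths of 677, 658 and 645 bp. The most frequent local background, solved from the deposited fold and p values as a measure of depth, was 14.2, 15.18 and 13.99 tags. Ranges in brackets after a share are exact 95% intervals by the Clopper-Pearson method. They hold for counting error alone, with neighbouring regions taken as independent.

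The inhibitors and LIF in 2iL hold embryonic stem cells in the naive state, with transcription factors such as Nanog, Esrrb, Klf4 and Tfcp2l1 acting together with Oct4 and Sox2. After withdrawal the cells leave this state, pass through a formative phase and, in N2B27, are biased towards neural ectoderm. Distal accessible regions include enhancers, where clusters of factor binding sites displace nucleosomes. The width of a listed interval is the stretch over which the signal passed the limit of the peak caller, so it measures the extent of listed accessibility, not the number of bound factors.

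Sequence could be read for the narrowing regions that hold an annotated transcription start, as RefSeq start windows of 300 bases (250 before to 50 after a start, build GRCm38.p6, given 5′ to 3′ on the strand of the transcript). The windows below show the range found: starts that stayed within the shrunken 96 h interval, starts at its edge, and a start left outside it. The 4 protein-coding starts shown are internal ones, in regions whose midpoints lie 12.04 to 25.4 kb from the nearest gene end. Capitals mark the letters of the listed motifs. Zfp936, a zinc finger protein gene, has its start window at chr7:43177340-43177639 on the plus strand, with 267 bases inside the 96 h interval, and holds a TFAP2 match and an ETS match. The lncRNA Gm13110 (chr4:154655693-154655992, minus strand, 182 bases inside the 96 h interval) starts within the narrowing region nearest to Actrt2 and holds a match to the short TFCP2L1/GRHL motif and overlapping AP-1 and TEAD matches. The start of Bcar1, which encodes a docking protein of adhesion signalling (chr8:111732087-111732386, minus strand), lies wholly inside the 96 h interval and has a POU octamer. The start of Runx3, a Runt-domain transcription factor gene (chr4:135152295-135152594, plus strand), is also wholly inside and has a pair of GC boxes. The start of Srgn, the serglycin gene (chr10:62507708-62508007, minus strand), lies wholly outside the 96 h interval and has an octamer and an OTX2 match. The Zfp936 and Gm13110 windows belong to regions chosen by rule, and the other 3 were picked after their values were seen.
Zfp936: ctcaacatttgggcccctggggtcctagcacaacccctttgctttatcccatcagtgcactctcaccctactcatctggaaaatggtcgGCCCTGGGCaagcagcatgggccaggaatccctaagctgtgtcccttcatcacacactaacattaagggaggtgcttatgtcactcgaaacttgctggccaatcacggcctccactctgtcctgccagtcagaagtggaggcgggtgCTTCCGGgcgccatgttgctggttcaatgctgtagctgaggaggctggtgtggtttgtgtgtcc
Gm13110: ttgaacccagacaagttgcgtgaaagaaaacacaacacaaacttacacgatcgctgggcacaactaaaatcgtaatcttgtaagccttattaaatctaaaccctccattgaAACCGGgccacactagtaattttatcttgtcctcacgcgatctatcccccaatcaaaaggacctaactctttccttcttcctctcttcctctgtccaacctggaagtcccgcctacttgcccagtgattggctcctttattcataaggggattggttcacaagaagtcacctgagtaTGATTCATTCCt
Bcar1: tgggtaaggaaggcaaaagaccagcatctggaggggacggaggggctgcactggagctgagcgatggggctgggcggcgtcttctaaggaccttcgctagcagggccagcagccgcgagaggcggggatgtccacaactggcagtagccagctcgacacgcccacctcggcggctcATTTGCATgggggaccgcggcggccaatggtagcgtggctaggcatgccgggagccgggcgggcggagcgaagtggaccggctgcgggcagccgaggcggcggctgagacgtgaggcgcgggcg
Runx3: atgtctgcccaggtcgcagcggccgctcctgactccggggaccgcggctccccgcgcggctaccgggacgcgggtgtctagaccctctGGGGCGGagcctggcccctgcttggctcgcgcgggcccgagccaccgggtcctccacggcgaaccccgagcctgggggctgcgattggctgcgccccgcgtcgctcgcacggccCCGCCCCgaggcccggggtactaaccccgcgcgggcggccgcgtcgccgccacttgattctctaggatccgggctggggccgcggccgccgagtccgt
Srgn: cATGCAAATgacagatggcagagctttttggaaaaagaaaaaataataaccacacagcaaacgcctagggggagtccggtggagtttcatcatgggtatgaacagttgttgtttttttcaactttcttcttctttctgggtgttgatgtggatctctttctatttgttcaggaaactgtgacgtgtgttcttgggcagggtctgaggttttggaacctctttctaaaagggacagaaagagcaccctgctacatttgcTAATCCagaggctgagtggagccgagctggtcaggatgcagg

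The regions were selected on the widths in 2iL and at 96 h, so these values describe the choice. Narrowing regions had median widths of 896 bp in 2iL (quartiles 672 and 1168), 676 bp at 48 h (484 and 919) and 406 bp at 96 h (287 and 529). The other distal regions measured 696, 717 and 696 bp in the same 3 lists. The median ratio of the 96 h width to the 2iL width was 0.496 among the narrowing regions (lowest 0.144) and 1.01 over all distal regions in all 3 lists. The narrowing share was higher among regions wide in 2iL, with 14.5% in the widest quartile of distal regions, against 1.35% in the narrowest quartile. Just inside the limit stood regions nearest to Kif5b, Hdac1 and Srsf3 with ratios of 0.6, 0.6 and 0.5997, and just outside it regions nearest to Krtcap2 and Cmtm3 with 0.6003 and 0.6004.

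**Figure D1:**
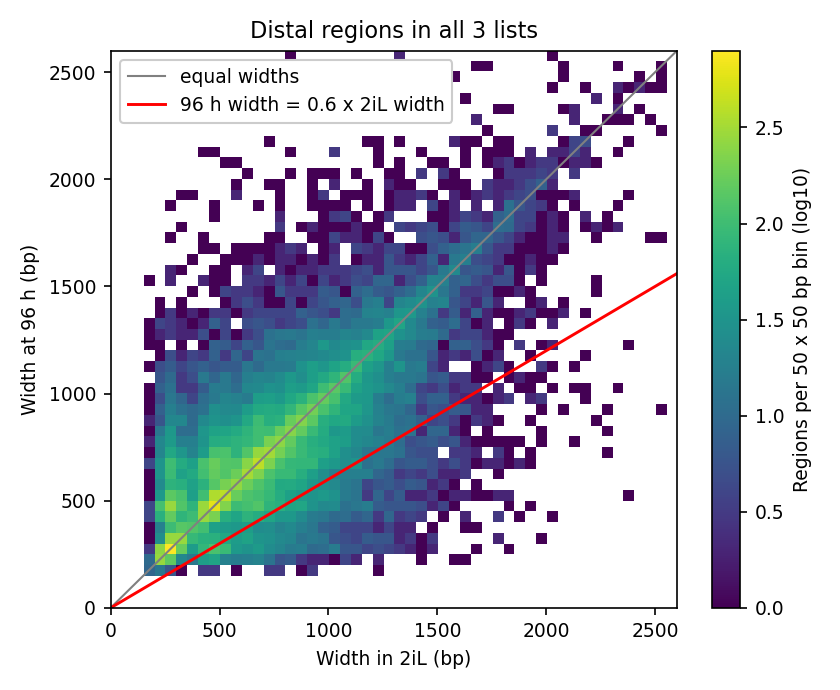
Width at 96 h (vertical axis, bp) against width in 2iL (horizontal axis, bp) for distal regions in all 3 lists, in bins of 50 bp, with colour for the number of regions per bin on a log10 scale. The narrowing regions are those on or below the red line, and most regions lie along the grey line of equal widths. Regions wider than the axes are not drawn.

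The 48 h width was not part of the rule and lay between the other widths in 1720 of the 2385 regions (72.1%, 70.3 to 73.9). Because the rule fixes the overall change from 2iL to 96 h, the timing describes its course and shows nothing beyond it. By 48 h, 650 regions (27.3%, 25.5 to 29.1) were already at or below 0.6 times their 2iL width, beside a background of 3.56% among all distal regions in all 3 lists. From 48 h to 96 h, 1189 regions (49.9%, 47.8 to 51.9) shrank to at most 0.6 times their 48 h width, beside a background of 6.47%. In 39 regions each step passed this limit, and in 585 (24.5%) neither did. At 48 h, 464 regions (19.5%) were wider than in 2iL and 201 (8.43%) were narrower than at 96 h.

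These timing classes are defined by width ratios that include the 2iL width. Their widths and summit numbers in 2iL therefore describe the classes and are no separate result. Regions past the limit by 48 h but not again after it (611) had median widths of 959, 450 and 433 bp in 2iL, at 48 h and at 96 h. Regions that passed it after 48 h alone (1150) measured 864, 825 and 345 bp, and regions that passed it in neither step (585) measured 874, 674 and 469 bp. The early regions had a median of 3 summits in 2iL, against 2 in the classes that narrowed later or in neither step. Their share inside protein-coding genes was 56.8% in the early class, 55.5% in the later class and 55.9% where neither step passed.

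**Figure D2:**
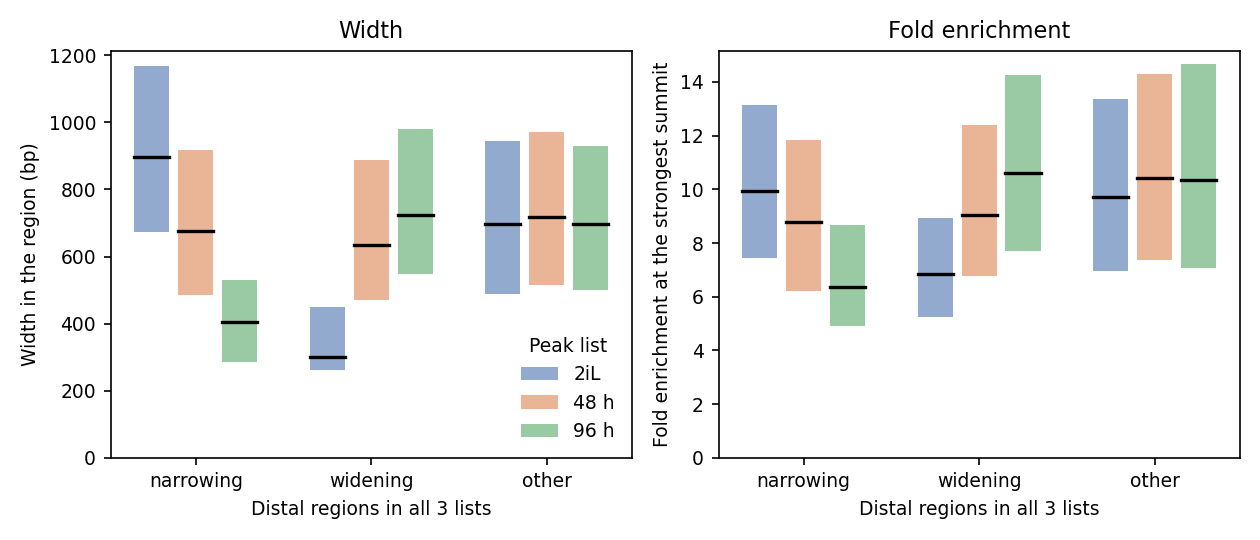
Width (left, bp) and fold enrichment at the strongest summit (right, the authors' values) in the 2iL, 48 h and 96 h lists for narrowing, widening and other distal regions. Boxes span the quartiles and black lines mark the medians. The median width of narrowing regions was 896, 676 and 406 bp, and within the 96 h list their median fold of 6.36 lay below the 10.3 of the other regions.

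The strongest summit mostly kept its place in narrowing regions, as it did in widening and other regions. The strongest summits of the 96 h and 2iL lists lay within 150 bp of each other in 2080 narrowing regions (87.2%, 85.8 to 88.5), against 91.7% (90.6 to 92.7) of widening regions and 89.6% (89.2 to 89.9) of the others. The median distance between these summits was 12 bp in narrowing regions, 9 bp in widening regions and 11 bp in the others. The strongest 2iL summit was still inside a 96 h interval in 2188 narrowing regions (91.7%, 90.6 to 92.8). A shorter 96 h interval lowers this share by construction. The 305 narrowing regions whose strongest summit lay over 150 bp away were wider, with medians of 1227 bp in 2iL, 943 bp at 48 h and 545 bp at 96 h. The median distance between their strongest summits was 480 bp.

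**Figure D3:**
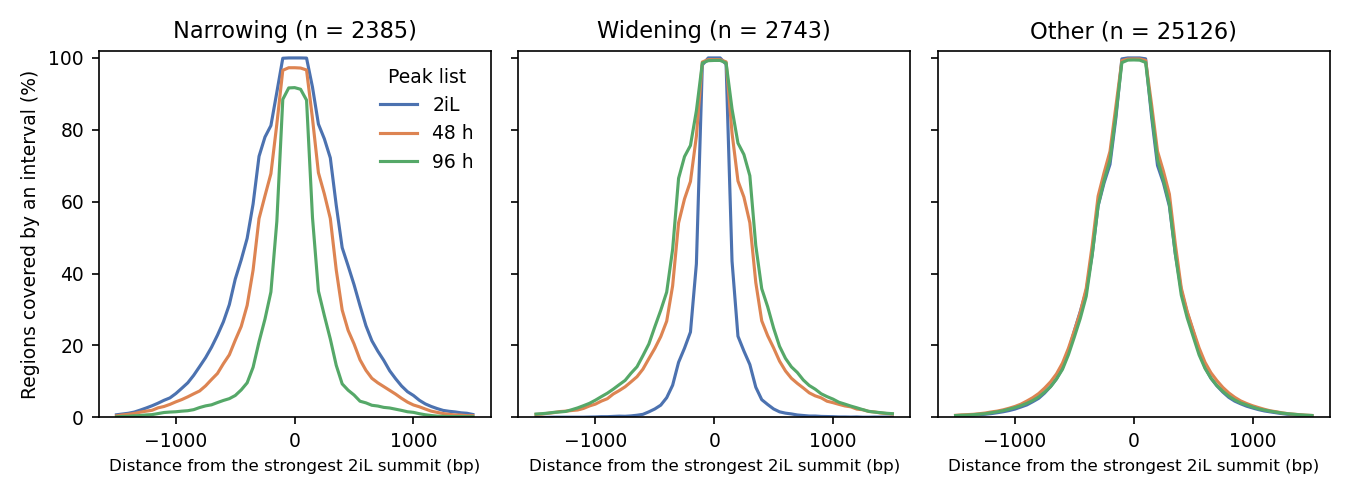
Share of narrowing, widening and other distal regions covered by an interval (vertical axis, percent) against the distance from the strongest 2iL summit (horizontal axis, bp, to 1500 on each side), for the 2iL, 48 h and 96 h lists. At 300 bp on the right, 72.2% of narrowing regions were covered in 2iL, 55.3% at 48 h and 21.8% at 96 h. The 96 h share at the summit itself was 91.7%.

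The layout of the loss follows in part from the choice of regions, since an interval chosen to be shorter at 96 h lies inside the older one more often by construction. The values describe it, and shares of the other classes are given as background. The 96 h interval lay wholly inside the stretch listed in 2iL in 1854 narrowing regions (77.7%, 76.0 to 79.4). In 1268 narrowing regions (53.2%) the smaller flank loss was under 0.1 times the larger, beside 13.2% of widening regions and 51.1% of the others. Uneven loss was thus not particular to narrowing regions, although the larger flank loss of the others had a median of only 15 bp. In 1002 narrowing regions (42.0%) each flank lost at least 50 bp, beside 3.38% of the others. The median loss in narrowing regions was 392 bp on the flank that lost more and 29 bp on the opposite flank. A region could also change by losing a separate interval, but 2212 narrowing regions (92.7%) had exactly 1 interval in each list. The same held for 93.4% of widening regions and 96.5% of the others.

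Summits are the local maxima that the authors' caller listed within an interval, and how many of them fall inside a shorter 96 h interval is set largely by the widths that chose the regions. At 96 h 68.5% of narrowing regions had 1 summit, against 16.6% in 2iL. Of the 6294 summits listed in 2iL within narrowing regions, 5022 (79.8%, 78.8 to 80.8) were inside a 48 h interval and 3327 (52.9%, 51.6 to 54.1) inside a 96 h interval. Leaving out the strongest summit of each region, 1139 of 3909 summits (29.1%, 27.7 to 30.6) were inside a 96 h interval. Within the 2iL list, summits outside the later 96 h interval had a median fold enrichment of 3.51 (quartiles 2.81 and 4.80). Those inside it had 8.02 (5.12 and 11.8), but they include the strongest summit of 2188 regions. This contrast is therefore largely built in, and no comparison without the strongest summits was made.

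Fold enrichment is the authors' value for each summit and is compared here only within a list. In the 2iL list, narrowing regions had a median fold at the strongest summit of 9.94, close to the 9.72 of the other distal regions. In the 48 h list the medians were 8.77 for narrowing regions and 10.4 for the others, and in the 96 h list 6.36 for narrowing regions and 10.3 for the others. Widening regions had 6.86 in 2iL, 9.06 at 48 h and 10.6 at 96 h. Narrowing regions were thus level with their peers in 2iL and weaker than them in the list where they are narrow. Width and summit height come from the same signal, so the fold is no independent measure of the change.

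The regions of largest loss were chosen by the number of base pairs lost. The region nearest to Arfgap3, a GTPase-activating protein of the Golgi, spanned 2375 bp in 2iL, 766 bp at 48 h and 512 bp at 96 h (chr15:83303862-83306236), and its summits numbered 9, 2 and 1. The region near Actrt2, an actin-related gene of the testis, with the Gm13110 start printed above, spanned 1981, 743 and 337 bp in 2iL, at 48 h and at 96 h. The region near Marf1, a regulator of meiosis, spanned 1814, 323 and 273 bp, so that most of its loss fell before 48 h. The region near Capn1, a calpain protease, spanned 2013, 1474 and 402 bp and lost most after 48 h. The other regions of this group lay near Lrp1, Erich4, Vwa3b, Cpvl, Nr1d1 and Tgif1 and lost between 1420 and 1622 bp by 96 h. Nr1d1 and Tgif1 were the exceptions in the position of their strongest summit, which lay 606 and 664 bp away at 96 h, while in the other 8 it stayed within 44 bp.

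The regions with the highest fold in 2iL gave 10 strong sites, whose widths ran from 286 to 474 bp at 96 h and from 537 to 959 bp in 2iL. The region near Spice1, a spindle and centriole gene, had the highest fold, with 33.1 in 2iL, 32.4 at 48 h and 28.5 at 96 h, while its width was 748, 533 and 338 bp. A region 73.7 kb from Sox2 (chr3:34575835-34576687) had folds of 24.5, 23.6 and 24.2 and widths of 853, 495 and 474 bp. The 10 regions were chosen for a high 2iL fold among regions short at 96 h, so a lower fold at 96 h follows in part from the choice. At 96 h 4 of the 10 regions had a fold above the 10.3 median of the other distal regions in that list, namely Spice1, Sox2, Cntrl and Gpsm2. The other 6 had a fold below it, between 5.80 and 8.27. Among these 6 was the Zfp936 region printed above, with folds of 27.8, 27.5 and 6.003 and widths of 864, 739 and 286 bp in 2iL, at 48 h and at 96 h. The region near Insr, the insulin receptor gene, had folds of 24.5, 11.9 and 7.80 and widths of 959, 486 and 410 bp. All 10 strongest summits stayed within 34 bp of their 2iL position at 96 h.

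At naive pluripotency genes 12 of 81 distal regions narrowed (14.8%, 7.90 to 24.4), beside 7.88% of all distal regions in all 3 lists. The interval begins at the background, this was the highest share of the 14 lists compared, and with regions limited to 20 kb from a gene end it was 2 of 37. The 12 regions lay near Esrrb and Tbx3 (3 each), Sox2 (2), and Klf4, Klf5, Nanog and Tfcp2l1 (1 each). Of the 81 regions 7 widened, beside 9.07% of all distal regions in all 3 lists. The median width ratio of all 81 regions was 0.960. Nr5a2 with 10 distal regions, Prdm14 and Tet2 with 5 each and Dppa3 with 4 had no narrowing region. The assignment is to the nearest gene end and does not show that a region acts on that gene.

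The region near Tfcp2l1, a CP2-family factor of the naive network, spanned 1143 bp in 2iL, 967 bp at 48 h and 405 bp at 96 h. All of its loss lay on 1 flank. The orphan nuclear receptor gene Esrrb had regions of 1849, 1583 and 704 bp, of 1173, 691 and 449 bp and of 1692, 1570 and 902 bp. The first of these was the exception among them, with its strongest summit 1064 bp away at 96 h. Near Tbx3, a T-box factor gene, the region with the smallest ratio spanned 711, 259 and 268 bp, and had reached its 96 h width by 48 h. The Nanog region, 5.43 kb from the end of this homeobox gene (chr6:122719818-122720311), also did so, with 485, 283 and 265 bp.

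The second Sox2 region, 92.7 kb from the gene (chr3:34744782-34745620), spanned 839, 527 and 281 bp with folds of 17.7, 13.6 and 5.87 in 2iL, at 48 h and at 96 h. Unlike that of the Sox2 region described above, its fold lay below the 10.3 median of the other distal regions in the 96 h list. Near Klf5, a Krüppel-like factor gene, the widths were 896, 817 and 531 bp and the folds 19.2, 19.5 and 4.74. The Klf4 region (chr4:55477255-55478462) had widths of 1026, 506 and 517 bp and folds of 5.26, 9.43 and 13.5. Its fold was below the median of the other distal regions in the 2iL list and above it in the 96 h list, and its strongest summit lay 347 bp away at 96 h.

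**Figure D4:**
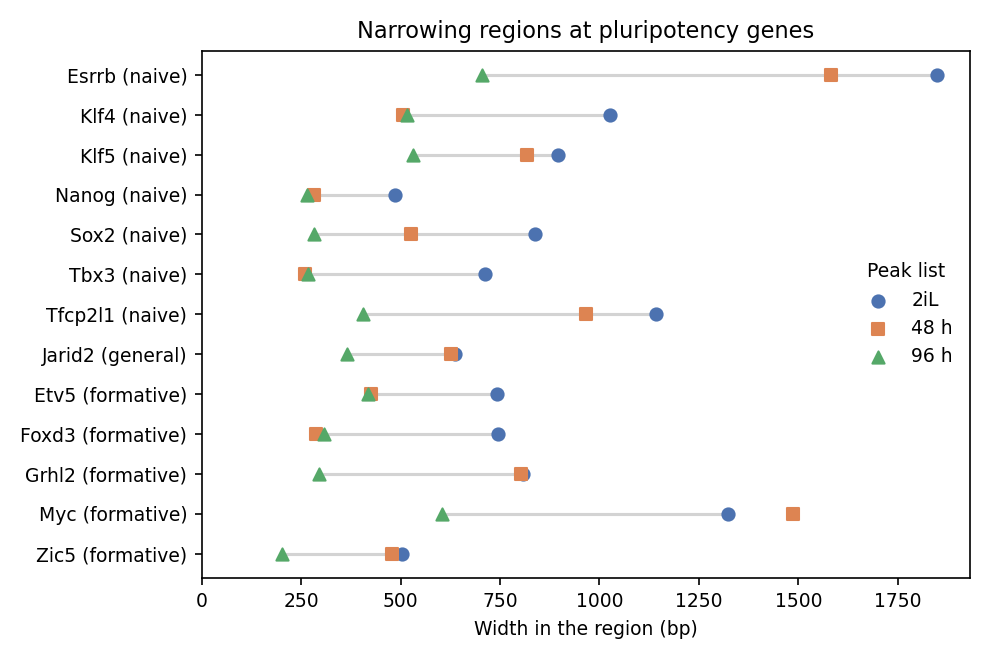
Widths (horizontal axis, bp) in the 2iL, 48 h and 96 h lists of the narrowing region with the smallest ratio at each gene of the naive, general, and formative and primed lists. Grey lines join the 96 h and 2iL widths. The 48 h width of the Klf4, Nanog and Tbx3 regions lies at the 96 h width, whereas that of Grhl2, Zic5 and Jarid2 lies at the 2iL width.

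Among general pluripotency genes 3 of 47 distal regions narrowed (6.38%), which were the Sox2 regions and a region near Jarid2, a cofactor of the Polycomb complex PRC2, with 637, 626 and 365 bp. Formative and primed genes had 6 of 85 (7.06%), near Grhl2 (2), Etv5, Foxd3, Myc and Zic5. The region near the ETS factor gene Etv5 spanned 742, 426 and 418 bp and that near the forkhead gene Foxd3 744, 287 and 306 bp in 2iL, at 48 h and at 96 h. The Foxd3 region was thus narrowest at 48 h. The Myc region was widest at 48 h, with 1323, 1486 and 605 bp, as was 1 of the Grhl2 regions, with 637, 717 and 311 bp. Otx2, Dnmt3a, Dnmt3b and Lef1, with 7, 8, 6 and 11 distal regions, had no narrowing region.

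Neural ectoderm genes had 8 of 76 narrowing regions (10.5%, 4.66 to 19.7). They included regions near Sox1 (2), Msi1, Ncam1, Pax3, Pax6 and Zfp521. The Sox1 region with the smaller ratio, near this early neural SOX gene, spanned 1307, 927 and 700 bp, with folds of 19.8, 20.5 and 21.7. The Ncam1 region, at a neural adhesion gene, spanned 975, 487 and 515 bp with folds of 9.08, 12.0 and 13.2. Both summits lay above the median of the other distal regions in the 96 h list. The Pax6 region, at a paired-box gene of the eye and neural tube, differed, with folds of 13.0, 4.34 and 3.57 and widths of 619, 418 and 350 bp.

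The other lists had shares on each side of the 7.88% background. Mesoderm and primitive streak genes had 5 of 37 narrowing regions (13.5%, 4.54 to 28.8), near Gsc (2), T, Kdr and Wnt3. The T region, at the Brachyury gene, spanned 811, 421 and 302 bp. WNT/beta-catenin target genes had 8 of 70 (11.4%, 5.07 to 21.3), 1 each near Axin2, Cdx1, Cdx2, Myc, Nkd1, Rnf43, Sp5 and T. Definitive endoderm genes had 3 of 32 (9.38%), LIF/STAT3 targets 3 of 42 (7.14%), FGF/ERK targets 3 of 53 (5.66%) and chromatin regulators 3 of 80 (3.75%, 0.780 to 10.6). Housekeeping genes had 5 of 39 (12.8%, 4.30 to 27.4), among them regions near Actb, Polr2a, Rab7 and Ywhaz, and this interval holds the background. Among genes of other cell types, trophoblast genes had 6 of 44 (13.6%), extraembryonic endoderm genes 2 of 36 (5.56%) and fibroblast genes 1 of 25 (4%).

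**Figure D5:**
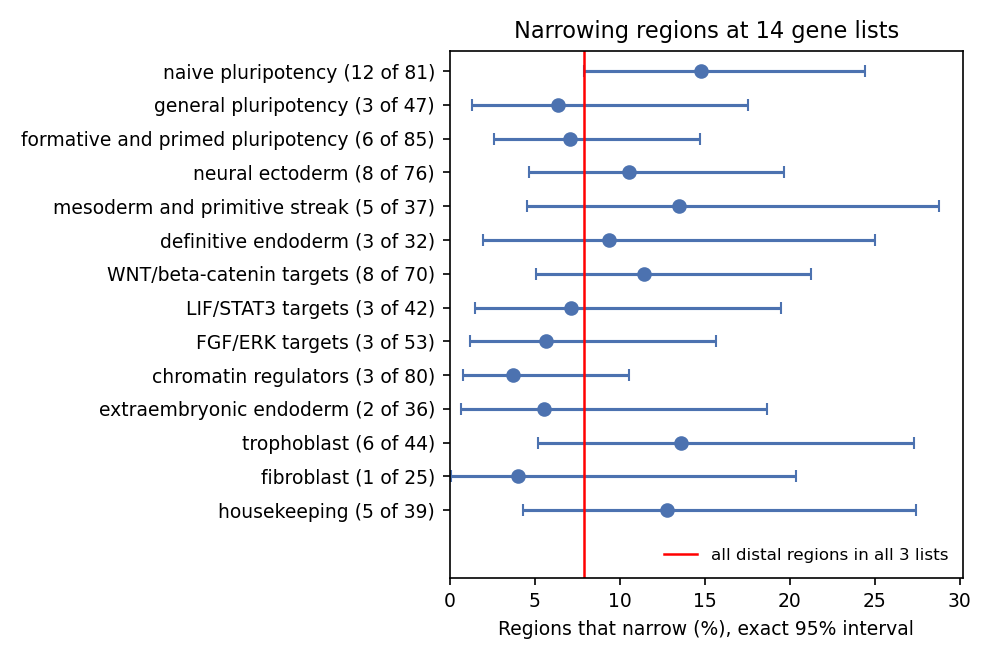
Share of distal regions in all 3 lists that narrow (horizontal axis, percent) at the genes of 14 lists, with exact 95% intervals and the numbers of regions in brackets. The red line is the 7.88% of all distal regions in all 3 lists, and every interval spans it except that of naive pluripotency, which begins at 7.90%.

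Narrowing regions were spread over many genes. They were nearest to 2095 of the 11751 protein-coding genes that had a distal region in all 3 lists, and 1850 of these genes had 1. The 10 genes with the most are named next, so their shares lie above the 7.88% background by choice. Septin9, a gene of a cytoskeletal GTPase, had 7 narrowing and 4 widening regions among 26. Bcor, a corepressor gene of a variant Polycomb complex on the X chromosome, had 6 narrowing and 0 widening regions among 20. Tfap2c, the AP-2 gamma factor gene that also marks trophoblast, had 4 narrowing and 2 widening regions among 10. The widths of these 4 narrowing regions were 379, 388, 1086 and 367 bp at 96 h, against 708, 828, 1887 and 626 bp in 2iL. Sipa1l2 had 4 narrowing regions and 1 widening region among 13. Stac2, Cyp2s1, Cpeb4, Spin1, Fzd10 and Uggt1 had 3 narrowing regions each, and of these genes only Cpeb4 had a widening region. For Stac2 the narrowing regions were all of its 3 distal regions. They had 498, 547 and 229 bp, 1285, 1149 and 735 bp, and 1492, 1518 and 491 bp in 2iL, at 48 h and at 96 h. Fzd10, a WNT receptor gene, had 3 among 6, with widths at 96 h of 262 to 625 bp.

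Position separated narrowing regions little from other distal regions. They lay inside a protein-coding gene in 55.9% of cases (53.9 to 57.9), widening regions in 53.6% and the others in 56.1%. Their median distance to a gene end was 14.3 kb, against 13.9 kb for widening regions and 12.6 kb for the others. The narrowing share by chromosome ran from 6.17% on X to 9.44% on chromosome 8, leaving out Y with 1 of 8 regions. Where another distal region in all 3 lists lay within 50 kb, the nearest also narrowed for 143 of 2130 narrowing regions (6.71%, 5.69 to 7.86), against 10.05% (8.88 to 11.3) of widening regions and 8.29% (7.93 to 8.66) of the others. A region listed in 2iL and not at 96 h lay within 50 kb of 91.4% (90.3 to 92.5) of narrowing regions, against 84.9% (83.5 to 86.2) of widening regions and 88.5% (88.1 to 88.9) of the others. The order did not hold at 10 kb, where these shares were 45.7% (43.6 to 47.7) of narrowing regions, 47.9% (46.0 to 49.8) of widening regions and 44.6% (44.0 to 45.2) of the others. Of all regions within 50 kb, 31.0% near narrowing regions, 27.7% near widening regions and 29.1% near the others were lost in this way, and within 10 kb 28.5%, 31.2% and 28.4%.

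Transcription starts were scarcer in narrowing and in widening regions than in the others. Outside chromosome 18, for which no start windows were used, 71 of 2321 narrowing regions (3.06%, 2.40 to 3.84) overlapped a start window, against 112 of 2674 widening regions (4.19%, 3.46 to 5.02) and 2294 of 24387 others (9.41%, 9.04 to 9.78). For starts of protein-coding genes the shares were 1.21% in narrowing regions, 2.43% in widening regions and 6.33% in the others, and for lncRNA starts 2.07%, 1.94% and 3.63%. Of 77 starts inside a 2iL interval of a narrowing region, 70 were inside a 48 h interval and 56 (72.7%, 61.4 to 82.3) inside a 96 h interval, a share that the choice of regions with a short 96 h interval lowers by construction. With the strongest 50% of each list alone, the share of narrowing regions with a start window was 6.54%. The shares of widening and other regions were not computed at that setting, so the difference between classes there is unknown.

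The start windows of narrowing regions, with the window nearest to the strongest 2iL summit taken for each region, had a median GC content of 51.3% and 5 CpGs. Those of widening regions had 55.8% and 8 CpGs, those of the other regions 59.0% and 15, and all 32851 windows 52.7% and 7. The GC box GGGGCGG was in 13 of 71 windows of narrowing regions (18.3%, 10.1 to 29.3), against 22.3% (15.0 to 31.2) of windows of widening regions, 36.1% of windows of the other regions and 23.2% of all windows. The NRF1 letters GCGCANGCG were in 0 of 71 (0 to 5.06%), against 1.79% (0.217 to 6.30) of windows of widening regions, 7.85% of the other regions and 6.25% of all windows. On both motifs the intervals of narrowing and widening regions overlapped.

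The POU octamer ATGCAAAT, the letters read by Oct4 and its relatives, was in 5 of 71 windows of narrowing regions (7.04%, 2.33 to 15.7). It was in 1 of 112 windows of widening regions (0.893%, 0.0226 to 4.87), 1.79% (1.29 to 2.42) of windows of the others and 1.74% of all windows. The interval of narrowing regions overlapped those of widening regions and of the others. The OTX2 letters GGATTA were in 15.5% (7.996 to 26.03) of windows of narrowing regions, 8.04% (3.74 to 14.7) of widening regions, 5.84% of the others and 7.06% of all windows. The ZIC letters CAGCAGG were in 19.7% (11.2 to 30.9) of windows of narrowing regions, 17.0% (10.5 to 25.2) of widening regions, 12.6% of the others and 10.5% of all windows. In all, 25 motifs were searched on both strands, and only some are given here. Against windows of the others, SOX ACAATNG was also more frequent in narrowing regions (12.7% against 6.23%). Less frequent were TFCP2L1/GRHL AACCGG (5.63% against 9.37%), KLF/SP GGGNGTGG (16.9% against 21.2%) and TFAP2 GCCNNNGGC (12.7% against 22.3%). ESRRB/NR5A2 TCAAGGTCA and STAT3 TTCCNGGAA were in 0 of 71, against 0.174% and 0.959%. With 25 searched, some shares would differ by counting error alone, and GC content differs between the classes. A match describes the letters and is neither a bound site nor a cause. The octamer of the Srgn window is not among these 5, because the start of the lncRNA Gm51804 lies nearer to the summit of that region.

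The octamer of Bcar1 stands in the window printed above, 34.5 bp from the strongest 2iL summit, and the other 4 are shown with 26 bases on each side, or fewer at a window's end. They are the lncRNA starts 4732419C18Rik (chr8:123754186-123754245, minus strand), Gm16551 (chr9:74848431-74848486, plus strand) and Gm52392 (chr19:25400792-25400851, minus strand), and the start of Arhgef2, a guanine nucleotide exchange factor gene (chr3:88615942-88616001, plus strand). Capitals mark the octamer on either strand.
4732419C18Rik: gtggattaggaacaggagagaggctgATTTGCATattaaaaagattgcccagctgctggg
Gm16551: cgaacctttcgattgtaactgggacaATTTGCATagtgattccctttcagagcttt
Gm52392: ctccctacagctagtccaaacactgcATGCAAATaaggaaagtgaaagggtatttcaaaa
Arhgef2: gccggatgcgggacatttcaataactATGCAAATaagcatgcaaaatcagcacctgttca

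The octamers of Bcar1, 4732419C18Rik and Gm16551 were inside the intervals of all 3 lists and within 82.5 bp of the strongest 2iL summit. The Gm52392 octamer lay 426.5 bp from the summit, inside the 2iL and 48 h intervals and outside the 96 h interval. The Arhgef2 octamer lay 648.5 bp from the summit and was inside an interval only at 48 h. The 5 regions had widths of 386 to 806 bp at 96 h, against 813 to 1510 bp in 2iL. In addition, 6 of the 2385 narrowing regions overlapped an annotated miRNA hairpin. In 4 of them (Mir1905, Mir7077, Mir3066 and Mir6993) no base of the hairpin was inside the 96 h interval. The choice of regions with a short 96 h interval favours this by construction. Hairpins in widening and other regions were not counted, so the number has no background.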

How the data were processed

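ATAC-seq peak lists of E14 cells were used, 1 per group of 2 samples. Each library came from nuclei of 100000 live cells, was amplified for 10 PCR cycles and was cut from a gel at 200 to 700 bp, per the labels' protocols. The build mm10 and the tools BWA, SAMtools, Picard and bcl2fastq 2.20.0.422 are in the submitters' processing notes, with no roles. Not given in the sources used here are the peak caller, its settings, any read shift and how samples A and B were combined, each of which could move interval edges. Whether A and B came from separate cultures is not stated. The deposited lists give, by the authors, an interval, a score shared by its summits, and for each summit a fold enrichment (a linear ratio) and a −log10 p. The score and the q values were not used. There were 0 unused sample columns.

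Intervals of the 3 lists were merged at an overlap of at least 1 bp, and widths were summed per list within a region. The strongest summit had the highest −log10 p. Genes came from the RefSeq table of GRCm38.p6 (21900 protein-coding genes), the assembly of mm10, which has no strand or exons, so no exon, intron or UTR is named. The distance is from the region's midpoint to the nearest gene end. Background tags were solved from the fold, (k + 1) / (background + 1) for k tags, and a Poisson p, for summits whose −log10 p was under 290. That held for 87.7%, 85.4% and 83.1% of summits in the 2iL, 48 h and 96 h lists, and k was whole within 0.02 in at least 99.99% of them. Sequencing depth itself is unknown.

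Named regions were the 10 with the largest loss in bp, the 10 with the highest 2iL fold, the region with the smallest ratio at each naive, general, formative or neural gene, all narrowing regions of the 10 genes with the most, and the 3 on each side of the limit. A few regions that this rule names are not reported here. Further regions at listed genes, the octamer windows and 3 of the printed start windows were chosen after their values were seen. The regions, the 14 gene lists (197 genes, all matched) and the comparisons were chosen with earlier results of these data known. No genome was used here, so the planned windows of 300 bases around summits were replaced by RefSeq start windows, 32851 in all with none on chromosome 18, searched for 25 motifs on both strands. Merging and width ratios were run on 2iL intervals and on copies of them, some cut to a known share of their width. Partly overlapping intervals and ratios near the limit were not part of that check. Python 3.11.15, numpy 2.4.6, pandas 2.3.3, scipy 1.17.1 and matplotlib 3.10.9 were used.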

Additional observations from a re-analysis of the deposited data

How the results depend on the processing

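Over 10 settings of 8 results, 59 of 80 values stayed within counting error or within 1.5 times the reported count, and 21 did not. With a ratio limit of 0.5 there were 1231 narrowing regions (4.07%), with a median 48 h to 2iL width ratio of 0.765 and the strongest summit kept in 84.8%. With a limit of 0.75 there were 4759 (15.7%), with a median ratio of 0.835 and a share of 28.4% (23 of 81) at naive genes. The strongest 50% of each list gave 482 regions (3.603%), a median ratio of 0.700, the summit kept in 90.7%, 53.1% of regions inside a gene and 6.54% with a start window. Regions up to 20 kb from a gene end numbered 1430 (7.51%), and the naive share was then 5.41% (2 of 37). The width of the widest interval gave 8.31% and a median ratio of 0.770, widths divided by the median of their list gave 6.74%, and regions with 1 interval in each list kept the summit in 88.7%. The cause of these changes was not tested. The octamer share ranged from 3.23% (1 of 31) to 8.82% (3 of 34), within its counting error at each of the 10 settings. That counting error is wide (2.33 to 15.7%), so staying within it says little. The share with a start window and its settings were added after the data were seen.

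No paired analysis was possible because samples A and B of each group share 1 peak list, and no sample was left out in turn for the same reason. Windows of 200 bases, windows around the 96 h summit and windows around the 2iL summit were not run, as no genome was used here. Each group gives 1 value per region, with no spread between samples to set a difference against. The depth behind an interval is unknown.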
